A study of Mus musculus with 24 samples.

Results

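The bone morphogenetic protein (BMP) ligand genes *Bmp2*, *Bmp4*, *Bmp6* and *Bmp7*, the genes *Grem1* and *Bmper* for secreted BMP-binding proteins, the transcriptional target genes *Id1*, *Id2* and *Id3*, and the activin subunit gene *Inhba* were followed in the kidneys of mice with congenital hydronephrosis. These 10 genes were chosen by name, with earlier results of these data known. All 10 were among the 27959 genes tested after the filter on dim probes. Of the genes tested, 16494 carried a gene name and the rest only an accession or probe. Each of the 10 was read by 1 probe, and *Bmp4* had another named probe that was well above background on none of the 24 arrays. Probes whose accession was not in RefSeq stayed unnamed and could include others for these genes. Whole kidneys came from age-matched male mice, called young adult in the labels. The 6 control kidneys were *mgb+/+*. The 18 *mgb-/-* kidneys had been graded by renal ultrasound as mild (7 kidneys), moderate (5) or severe (6), by how much parenchyma was preserved rather than by a clinical grading system. The *mgb-/-* mouse has an atonic bladder and develops hydronephrosis before birth. The labels do not tie kidneys to animals, so 2 kidneys of 1 mouse could be among them. Each kidney counted as a sample, and p-values measure the spread between these kidneys, which is too small where kidneys share a mouse.

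BMPs are secreted dimers that bind pairs of type I and type II receptor kinases, which phosphorylate the receptor Smads. These enter the nucleus with Smad4 and switch on target genes, among which the *Id* genes are the best known. Id proteins lack a DNA-binding region and hold basic helix-loop-helix factors away from DNA. Outside the cell, gremlins, chordins, follistatins and related proteins bind the ligands and limit their access to receptors. In the kidney, Bmp7 is needed for nephron formation, Bmp4 shapes the early ureter, and Grem1 is needed for the ureteric bud to grow out and branch. Activin A, a dimer of the *Inhba* product, belongs to the same superfamily but signals through Smad2 and Smad3, and follistatins bind it tightly.

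Every level given here is the log2 of the array's processed signal minus the 75th percentile of that array, so 0 is that percentile and a step of 1 is a doubling. Probes differ in brightness, so levels were compared between kidneys and never between genes. Statements that groups of kidneys do or do not overlap are descriptions, and the share of all genes without overlap was not counted. A gene passed the test when its p-value from the moderated test of limma, adjusted by the Benjamini-Hochberg method over all 27959 genes, was under 0.05. On an array 56.6% to 71.5% of spots were well above background, and no spot was saturated. Severe replicate 4 stood apart, with a median correlation of 0.935 with the other arrays and 660 outlier spots, followed by severe replicate 5 at 0.949. Without severe replicate 4, the number of the 10 genes that passed the test was the same in each of the 7 comparisons made below. All 6 proximal tubule markers and all 5 podocyte markers passed the filter on dim probes, as the labelled tissue implies. The summed level of 4 adrenal markers, in units of the 75th percentile, was 123 in mild replicate 4 and 108 in moderate replicate 1 and at most 2.43 in the other kidneys.

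Sequence upstream of the transcription start is shown for *Grem1*, which had the largest change among the 10 genes, and for *Id2* and *Id3*. *Id2* fell in severe kidneys, and *Id3* did not pass the test in any comparison. Whether their changes differed from that of *Id1* was not tested. The sequences are the 250 bases before the start in RefSeq (GRCm38.p6), 5′ to 3′ on the strand of the gene. Promoters for 7 of the 10 genes were in the table, and those of *Id1*, *Bmp2* and *Bmp7* were not. Capitals mark 2 motifs, found on both strands. GGCGCC is the GC-rich element through which Smad1 and Smad5 bind BMP target genes, and GTCT, read as AGAC on the other strand, is the short Smad-binding element.
*Grem1* (chr2:113758649-113758898, minus strand): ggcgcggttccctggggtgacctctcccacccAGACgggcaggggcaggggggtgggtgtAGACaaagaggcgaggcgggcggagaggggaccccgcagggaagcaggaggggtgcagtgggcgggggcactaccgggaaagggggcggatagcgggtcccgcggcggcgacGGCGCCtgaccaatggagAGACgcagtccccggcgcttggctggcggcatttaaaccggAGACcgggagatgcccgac
*Id2* (chr12:25096093-25096342, minus strand): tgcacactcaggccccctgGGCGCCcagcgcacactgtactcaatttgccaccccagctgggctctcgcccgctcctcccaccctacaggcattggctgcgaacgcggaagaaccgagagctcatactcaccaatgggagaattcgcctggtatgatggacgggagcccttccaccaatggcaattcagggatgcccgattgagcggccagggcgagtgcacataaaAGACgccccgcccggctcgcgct
*Id3* (chr4:136143572-136143821, plus strand): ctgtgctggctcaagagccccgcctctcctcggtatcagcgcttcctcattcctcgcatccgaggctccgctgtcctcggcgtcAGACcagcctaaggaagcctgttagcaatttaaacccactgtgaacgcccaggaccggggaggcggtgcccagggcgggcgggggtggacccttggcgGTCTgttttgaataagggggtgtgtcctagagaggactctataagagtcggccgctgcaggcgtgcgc
GGCGCC stood 78 to 73 bases upstream of the start in *Grem1* and 231 to 226 bases upstream in *Id2*, and it had no match in *Id3*, *Bmp4*, *Bmp6*, *Bmper* or *Inhba*. Of all 32851 promoters listed, 9.59% held it. GTCT matched 4 times in *Grem1*, 2 times in *Id3* and 1 time in *Id2*, and 82.9% of all promoters held at least 1 match. The other motifs were also searched on both strands. The palindrome GTCTAGAC, which contains GTCT, was in none of the 7 promoters and in 0.167% of all. The Egr element GCGNGGGCG was in none of the 7 and in 4.70% of all, and the E-box CANNTG was in 3 of the 7 (*Bmp4*, *Bmp6*, *Id2*) and in 66.2% of all. These matches describe letters in a window and are not binding sites measured here.

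In *mgb-/-* kidneys as a whole, *Grem1* and *Id1* rose and the other 8 genes did not pass the test. *Grem1* rose by 3.50 on the log2 scale (SE 0.53, adjusted p = 0.000415) and *Id1* by 1.02 (SE 0.19, adjusted p = 0.0022), a 2.02-fold difference. No fold is given for *Grem1*, because 4 of the 6 control kidneys were not well above background and its log2 change ran from 1.45 to 4.28 over the alternatives tried. So 2 of 10 genes passed, both upward, where 13.3% of all genes tested passed in either direction, 5.34% passed upward and 8% passed downward. The median change of the 10 genes was 0.55, against 0.01 over all genes tested. The 10 genes were chosen with earlier results of these data known. Their counts and median beside those of all genes are thus a description and not independent evidence. By grade, 2 of 10 passed in mild kidneys, both upward (6.02% of all genes, 3.01% upward). In moderate kidneys 1 of 10 passed, upward (1.2% of all genes, 0.647% upward). In severe kidneys 4 of 10 passed (16.1% of all genes), 3 upward and 1 downward (6.57% and 9.56% of all genes). With a fold of at least 2 required as well, 2 of 10 passed over all *mgb-/-* kidneys (3.09% of all genes) and 2 of 10 in severe kidneys (4.71%). The comparisons of the 3 grades share their control kidneys. In whole kidney RNA, a change in the number of cells of a type and a change in RNA per cell cannot be told apart.

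**Figure D1:**
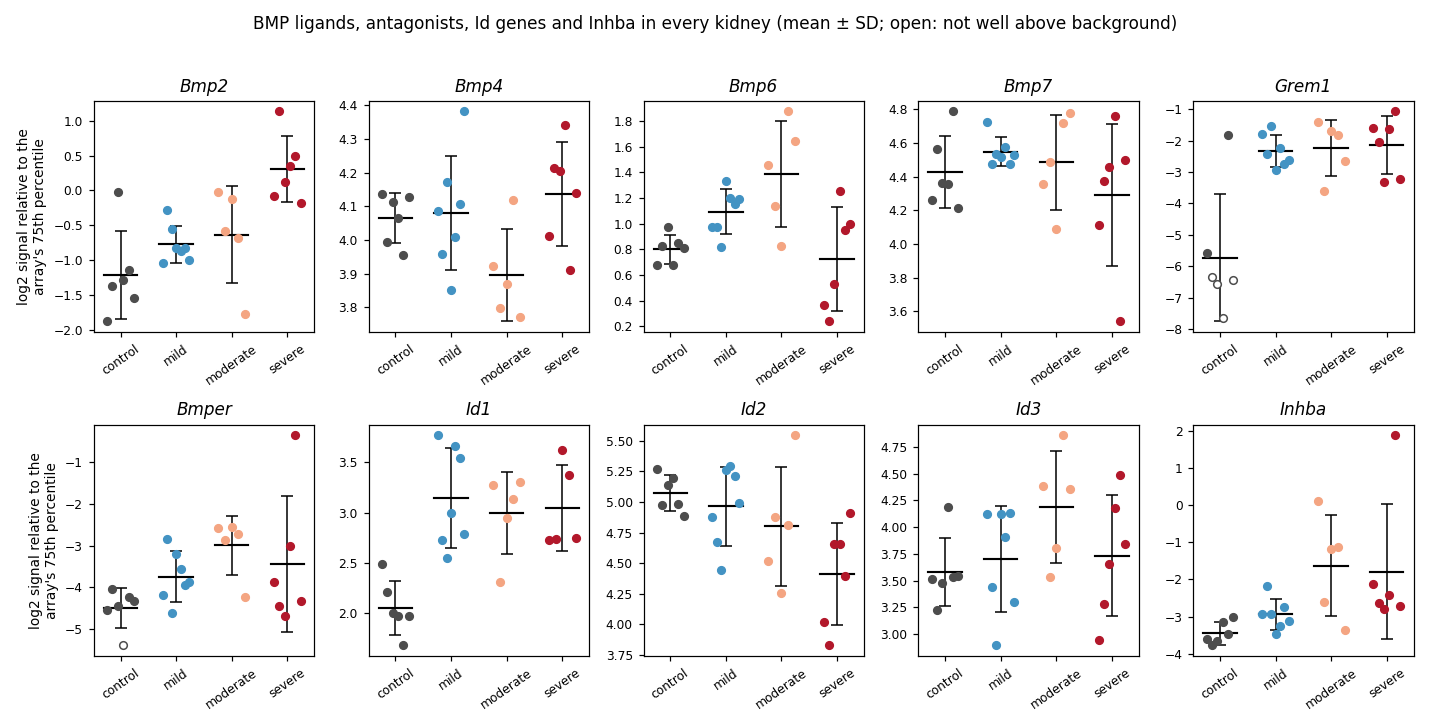
Level of each of the 10 genes (log2 signal relative to the array's 75th percentile, vertical axis) in every control, mild, moderate and severe kidney, with the group mean and SD as bars and open points for spots not well above background. *Grem1* lay between -3.60 and -1.07 in the *mgb-/-* kidneys, and control replicate 5, at -1.82, lay among them; *Bmp2* was at -0.18 or higher in all 6 severe kidneys.

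Among the ligands, *Bmp2* rose in severe kidneys. *Bmp2* encodes an osteogenic BMP that also acts on smooth muscle and epithelium. Its level in the control kidneys was -1.88, -1.37, -0.02, -1.29, -1.15 and -1.54. In severe kidneys it was -0.08, 1.13, 0.12, 0.35, 0.50 and -0.18. Control replicate 3, at -0.02, was the single control kidney inside the severe range. The rise in severe kidneys was 1.52 (SE 0.29, adjusted p = 0.00315), a 2.86-fold difference, and all 6 severe kidneys were above the control mean. Within the 3 slides it was 2.72 (1 severe kidney), 1.57 and 0.81.

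Mild kidneys had *Bmp2* levels between -1.04 and -0.29 (mean -0.77 ± 0.27, SD, n = 7) and moderate kidneys between -1.78 and -0.02 (mean -0.64 ± 0.70, SD, n = 5). The changes against control, 0.44 in mild and 0.57 in moderate kidneys, did not pass the test (adjusted p = 0.406 and 0.322, limma). Group means ran from control (-1.21) through mild and moderate to severe (0.31), and neither mild against control nor moderate against mild differed beyond the spread. The difference of severe from mild kidneys was 1.08 (unadjusted 95% interval 0.49 to 1.67) and missed the threshold (adjusted p = 0.101, limma). That difference passed without control replicate 3 (adjusted p = 0.0495) or without moderate replicate 5 (adjusted p = 0.0401). It also passed with normexp background correction (adjusted p = 0.0399). Over all *mgb-/-* kidneys the change of 0.84 did not pass (adjusted p = 0.0678), and it passed without control replicate 3 or without moderate replicate 5 (adjusted p = 0.0379 and 0.0266). The change also passed with array quality weights (adjusted p = 0.0317) and with the 3 grades weighted equally (adjusted p = 0.0239).

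Markers of other tissue moved with severity beside *Bmp2*. All 6 urothelial markers (*Upk1a*, *Upk1b*, *Upk2*, *Upk3a*, *Krt5* and *Krt14*) were higher in severe than in control kidneys, with a median change of 3.37. Their summed level was 6.21 to 18.4 in control kidneys, 4.92 to 57.1 in mild, 13.7 to 52.9 in moderate and 70.7 to 231 in severe kidneys, so severe kidneys overlapped no other group. Their part in the change of *Bmp2* was not tested.

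*Bmp4*, *Bmp6* and *Bmp7* did not pass the test in any of the 7 comparisons. *Bmp4* encodes a ligand of the mesenchyme around the ureteric duct. Its level was between 3.77 and 4.38 in all 24 kidneys, and its change in *mgb-/-* kidneys was -0.02 (unadjusted 95% interval -0.19 to 0.16). *Bmp7*, whose product keeps nephron progenitors alive, had control levels of 4.22 to 4.79, mild levels of 4.48 to 4.73, moderate levels of 4.09 to 4.78 and severe levels of 3.54 to 4.76. Its change over all *mgb-/-* kidneys was 0.02 (unadjusted 95% interval -0.25 to 0.29), and its sign turned under other settings. *Bmp7* was lowest in severe replicate 5.

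*Bmp6*, which in liver drives hepcidin expression, had a different shape. Control kidneys lay close together at 0.67, 0.82, 0.97, 0.68, 0.85 and 0.81. Mild kidneys lay between 0.82 and 1.33, and 6 of the 7 exceeded every control kidney. Moderate kidneys were at 1.46, 1.14, 0.82, 1.87 and 1.64, and 4 of the 5 exceeded every control kidney. The difference of moderate from mild kidneys was 0.30 and did not pass (adjusted p = 0.854, limma). Severe kidneys were at 0.37, 0.24, 0.53, 1.26, 0.95 and 0.99 and spread to both sides of the controls. The change was 0.59 in moderate kidneys (SE 0.18, adjusted p = 0.0951), 0.29 in mild kidneys (SE 0.17, adjusted p = 0.326) and -0.08 in severe kidneys (SE 0.17, adjusted p = 0.800). The difference of severe from moderate kidneys, -0.66 (unadjusted 95% interval -1.04 to -0.29), did not pass over all genes (adjusted p = 0.234, limma). It passed under 2 of 36 alternatives, array quality weights (adjusted p = 0.0382) and without moderate replicate 3 (adjusted p = 0.0491). Array quality weights were the 1 alternative of 36 that passed in moderate against control (adjusted p = 0.0092) and in severe against mild (adjusted p = 0.0294).

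*Grem1* changed most among the 10 genes, and it rose in every grade. *Grem1* encodes gremlin 1, a cystine-knot protein that binds Bmp2, Bmp4 and Bmp7. Its levels in control kidneys were -5.57, -6.36, -6.57, -7.64, -1.82 and -6.44, and only replicates 1 and 5 were well above background. Mild kidneys were at -1.77, -2.41, -1.54, -2.94, -2.25, -2.73 and -2.61. Moderate kidneys were at -1.39, -3.60, -1.68, -1.81 and -2.66, and severe kidneys were at -1.61, -2.03, -3.33, -1.62, -1.07 and -3.21. The probe was well above background in all 18 *mgb-/-* kidneys, which all lay above 5 of the 6 controls, and control replicate 5 lay inside their range.

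The rise of *Grem1* was 3.41 in mild (SE 0.65, adjusted p = 0.00465), 3.50 in moderate (SE 0.71, adjusted p = 0.0213) and 3.59 in severe kidneys (SE 0.67, adjusted p = 0.00239). These 3 values differed from each other by less than their errors. The difference of severe from mild kidneys was 0.18, with an unadjusted 95% interval of -1.17 to 1.52. Since 4 control kidneys were at background, the size of the rise depends on how dim spots are read. With normexp background correction the rise over all *mgb-/-* kidneys was 1.45 (adjusted p = 0.00122), with 1.33, 1.46 and 1.58 for the mild, moderate and severe grades. With the authors' normalized table it was 1.75 (adjusted p = 0.00113). With spots that were not well above background raised to the lowest signal of their array that was, an alternative chosen after these values were seen, the rise over all *mgb-/-* kidneys was 2.93 (adjusted p = 0.000602). Without control replicate 5 and with dim spots as read, it was 4.28 (adjusted p = 2.48e-07). Within the 3 slides it was 4.51, 1.54 and 4.44, the lowest on the slide that held control replicate 5. The rise in moderate kidneys lost the threshold when control replicate 3, 4 or 6 or moderate replicate 1, 3 or 4 was left out (adjusted p up to 0.0962), and a filter that required signal on all 24 arrays removed *Grem1*.

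Control replicate 5 also had the highest summed smooth muscle level (27.5, other controls 14.5 to 24.6) and the highest summed urothelial level (18.4) of the control kidneys, and it was the highest control in 8 of the 11 marker lists, those of proximal tubule, distal tubule, collecting duct, intercalated cells, podocytes and endothelium included. Over the grades, the 5 smooth muscle markers summed to 26.0 to 49.2 in mild, 15.9 to 95.2 in moderate and 35.7 to 107 in severe kidneys. Control replicate 6 had a smooth muscle sum of 24.6 with *Grem1* at -6.44, and moderate replicate 5 had 15.9 with *Grem1* at -2.66. In *mgb-/-* kidneys 2 of the 5 (*Acta2* and *Tagln*) and 1 of 6 stromal markers (*Dcn*) passed the test upward, beside 5.34% of all genes. The list medians were 0.97 and 0.52. The part of these tissues in the change of *Grem1* was not tested.

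*Bmper*, whose secreted product binds BMPs and can raise or lower their signaling, did not pass in any comparison. Control kidneys were between -5.38 and -4.04, and 5 of the 6 were well above background. Mild kidneys lay between -4.62 and -2.83. Moderate kidneys were at -2.59, -2.86, -2.57, -2.72 and -4.23. Every control was exceeded by 4 of the 5 moderate, 5 of the 7 mild and 3 of the 6 severe kidneys. Severe kidneys were at -3.87, -4.45, -4.68, -3.00, -0.36 and -4.32, where replicate 5 stood far above the rest. The change in *mgb-/-* kidneys was 1.06 (SE 0.43, adjusted p = 0.105). In moderate kidneys it was 1.50 (SE 0.56, adjusted p = 0.157), and it passed there without severe replicate 5 (adjusted p = 0.0259), with the spread then estimated without that kidney. Moderate replicate 5, the low value, had the lowest urothelial and smooth muscle sums of its group, 13.7 and 15.9. It also had the lowest stromal sum (42.5) and the highest proximal tubule sum (1112) of its group. The urothelial sum was highest in severe replicate 2 (231), where *Bmper* was -4.45, inside the control range. In severe replicate 5 the urothelial sum was 140 and *Bmper* was -0.36. The part of these tissues in the level of *Bmper* was not tested.

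**Figure D2:**
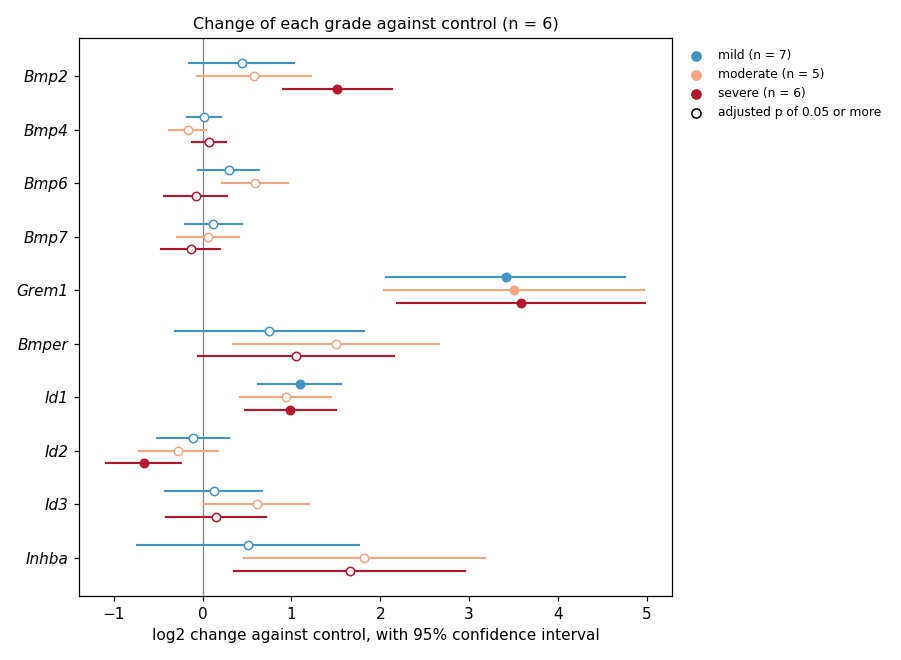
Log2 change of each of the 10 genes against the 6 control kidneys (horizontal axis) in mild, moderate and severe kidneys, with unadjusted 95% confidence intervals as lines and filled points where the adjusted p was under 0.05. *Grem1* was raised by 3.41 to 3.59 in every grade and *Id1* was filled in mild and severe kidneys but not in moderate ones, while *Bmp2* and *Id2* were filled in severe kidneys only; whether grades differed was tested separately.

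Of the *Id* genes, *Id1* rose and *Id2* fell in severe kidneys, while *Id3* did not pass the test in any comparison. *Id1*, a direct target of BMP receptor Smads, had control levels of 2.49, 2.21, 2.00, 1.98, 1.68 and 1.98. In mild kidneys it was 3.77, 2.73, 2.55, 2.99, 3.66, 3.54 and 2.79. Moderate kidneys were at 3.27, 2.31, 2.94, 3.13 and 3.30, and severe kidneys at 2.73, 2.74, 3.63, 3.38 and 2.75. The spot of severe replicate 4 was marked as an outlier and was left out of every fit of *Id1*. All 17 measured *mgb-/-* kidneys were above the control mean, and 16 of them were above every control kidney, with moderate replicate 2 the exception.

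The rise of *Id1* was 1.09 in mild (SE 0.23, adjusted p = 0.00813), 0.94 in moderate (SE 0.25, adjusted p = 0.0593) and 0.99 in severe kidneys (SE 0.25, adjusted p = 0.0129). The moderate kidneys missed the threshold with a similar change, and the moderate and mild groups differed by -0.16 (unadjusted 95% interval -0.65 to 0.34). Without moderate replicate 2 the rise in moderate kidneys was 1.11 (adjusted p = 0.0166). Within slides, the change over all *mgb-/-* kidneys was 0.89, 1.22 and 0.91. Group means stood in the order control (2.06), moderate (2.99), severe (3.04) and mild (3.15), and the 3 grades did not differ beyond their spread.

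*Id2*, another member of the *Id* family, went the other way. Control kidneys were at 5.27, 4.97, 5.14, 5.19, 4.98 and 4.89. Severe kidneys were at 4.02, 3.83, 4.66, 4.66, 4.40 and 4.91, all below the control mean and 5 of 6 below the lowest control. *Id2* fell by 0.66 in severe kidneys (SE 0.20, adjusted p = 0.0314), with within-slide differences of -1.40 (1 severe kidney), -0.45 and -0.49. Mild kidneys ranged from 4.44 to 5.30 and moderate kidneys from 4.26 to 5.55, with changes of -0.11 and -0.27 that did not pass (adjusted p = 0.827 and 0.512, limma). The fall in severe kidneys was near the threshold. It did not pass without control replicate 1, 3 or 4 or without severe replicate 1, 2 or 5 (adjusted p 0.0532 to 0.0860), nor with quantile normalization (change -0.44, adjusted p = 0.0856), the authors' normalized table (adjusted p = 0.0932) or the control and severe kidneys fitted alone (adjusted p = 0.0508).

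*Id3*, which often accompanies *Id1* downstream of BMP, was at 3.23 to 4.19 in control, 2.90 to 4.13 in mild, 3.53 to 4.86 in moderate and 2.94 to 4.49 in severe kidneys. All groups overlapped. Its change was 0.27 in *mgb-/-* kidneys (SE 0.23, adjusted p = 0.472) and 0.61 in moderate kidneys (SE 0.29, adjusted p = 0.259).

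*Id1* and *Id3* were set beside each other across the 17 *mgb-/-* kidneys in which *Id1* was measured, with the controls left out because the genotypes differ in *Id1*. Pearson's r was 0.59 (permutation p = 0.0132, two-sided, adjusted p = 0.119 over the 9 relations of the other genes with *Id1*). Spearman's rho was 0.66 (permutation p = 0.00477, adjusted p = 0.0429). With grade means removed r was 0.72 (permutation test, adjusted p = 0.0125), and without the 2 kidneys farthest from the median of *Id1* it was 0.61. Within slides r was 0.54 (6 kidneys), 0.51 (6 kidneys) and 0.77 (5 kidneys). Both genes share each array's scaling. The relation was positive on each slide, and Pearson's r over all 17 kidneys did not pass the correction. The other 8 genes had r between -0.21 (*Bmp2*) and 0.36 (*Id2*) with *Id1*, and none passed (permutation test, smallest adjusted p = 0.680).

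**Figure D3:**
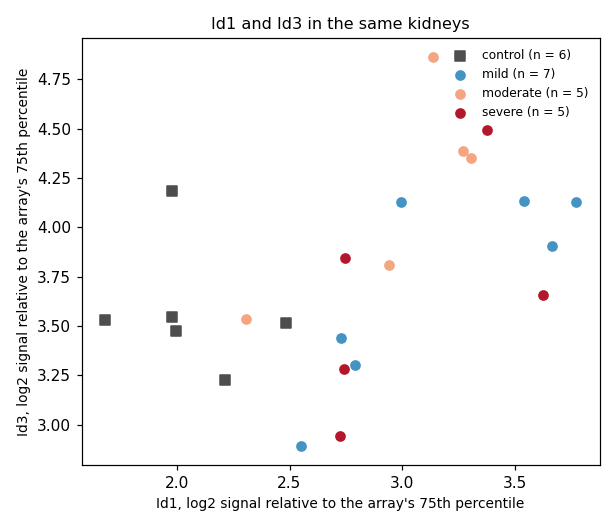
Level of *Id1* (horizontal axis) and *Id3* (vertical axis) in each kidney, both as log2 signal relative to the array's 75th percentile, by group. Over the 17 *mgb-/-* kidneys (circles) Pearson's r was 0.59; the controls (squares) lay at *Id1* levels of 2.49 or less.

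*Inhba*, the subunit that pairs to form activin A, varied widely among moderate and severe kidneys. Control kidneys were at -3.62, -3.77, -3.67, -3.15, -3.48 and -3.01. Mild kidneys were between -3.47 and -2.19, moderate kidneys were at 0.12, -2.61, -1.18, -1.13 and -3.36, and severe kidneys were at -2.13, -2.63, -2.79, -2.42, 1.89 and -2.71. All 6 severe kidneys were above every control kidney, and severe replicate 5 stood far above its group. Moderate kidneys were widely spread, with replicate 1 the highest. The change was 1.25 in *mgb-/-* kidneys (SE 0.55, adjusted p = 0.127), 1.82 in moderate (SE 0.66, adjusted p = 0.146) and 1.65 in severe kidneys (SE 0.62, adjusted p = 0.0725). Without severe replicate 5 the change in severe kidneys was 0.92, still short of the threshold, and the change in moderate kidneys stayed at 1.82 and passed (adjusted p = 0.0202). In severe kidneys the change passed under 1 of 36 alternatives, without severe replicate 6 (adjusted p = 0.0440). In moderate kidneys 2 of 36 passed, the other with array quality weights (adjusted p = 0.0087). Severe replicate 5 was the highest severe kidney for *Inhba*, *Bmper* and *Grem1* and the lowest for *Bmp7*. Moderate replicate 1 was one of the 2 kidneys with high adrenal markers, and the other, mild replicate 4, had the lowest *Inhba* level of the mild kidneys (-3.47). These 2 kidneys are of different grades, and the part of adrenal tissue in the level of *Inhba* was not tested.

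Between grades, none of the 10 genes passed the test with limma. In severe against mild kidneys 3 genes had an unadjusted p under 0.05 (*Bmp2*, *Bmp6*, *Id2*), where 0.587% of all genes passed the adjusted threshold and 11.1% had an unadjusted p under 0.05. In severe against moderate kidneys these were also 3 (*Bmp2*, *Bmp4*, *Bmp6*), with 0.00715% of all genes past the adjusted threshold and 10.4% at the unadjusted one. In moderate against mild kidneys none of the 10 had an unadjusted p under 0.05, beside 6.67% of all genes, and 0% of all genes passed the adjusted threshold. The largest of these differences were 1.31 for *Inhba* in moderate against mild kidneys (adjusted p = 0.749), 1.15 for *Inhba* in severe against mild kidneys (adjusted p = 0.490) and 1.08 for *Bmp2* (above).

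The other genes of the pathway were taken from lists of 66 ligands, antagonists, receptors, Smads and targets, of which 57 were tested. The study had listed *Grem1*, *Id1*, *Bmp2*, *Bmp3*, *Fst*, *Fstl3* and *Chrdl1* among others as changed on these same kidneys, so their directions are not independent evidence. In *mgb-/-* kidneys 5 of the 57 were higher and 3 lower, in mild kidneys 2 higher and 1 lower, and in severe kidneys 7 higher and 6 lower. These are 8, 3 and 13 of 57 beside 13.3%, 6.02% and 16.1% of all genes. The median change of the 57 genes was 0.14 in *mgb-/-* and 0.20 in severe kidneys, against 0.01 and 0.02 over all genes. In moderate kidneys none passed with limma, and 11 (19.3%) had an unadjusted p under 0.05, beside 18.4% of all genes.

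Of 15 antagonists and extracellular modulators tested, 3 were higher and 2 lower in *mgb-/-* kidneys, beside 5.34% and 8% of all genes. *Fstl3*, a follistatin-like binder of activins, was between 0.62 and 1.30 in control and between 1.33 and 2.64 in *mgb-/-* kidneys, with no overlap. It rose by 1.04 (SE 0.17, adjusted p = 0.000904). *Fst*, follistatin itself, rose by 1.08 in *mgb-/-* kidneys (SE 0.33, adjusted p = 0.0336), from control levels of 0.69 to 1.86 to *mgb-/-* levels of 0.80 to 3.97, and by single grade it did not pass.

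*Chrdl1*, which encodes the chordin-like BMP binder ventroptin, fell. Its levels were -2.95 to -1.48 in control, -4.91 to -2.13 in mild, -3.60 to -1.16 in moderate and -4.18 to -1.63 in severe kidneys. It fell by 2.09 in mild (SE 0.48, adjusted p = 0.0135, 6 of 7 kidneys in the fit) and by 1.41 in severe kidneys (SE 0.48, adjusted p = 0.0479), and the call in severe kidneys held under 11 of 35 alternatives. With normexp these values were -1.08 and -0.74. *Kcp*, the gene of kielin/chordin-like protein, which enhances BMP signaling, fell by 0.55 in *mgb-/-* kidneys (SE 0.15, adjusted p = 0.0168). Its control kidneys lay at 1.85 to 2.18 and its *mgb-/-* kidneys at 0.87 to 2.09. *Nbl1*, a secreted member of the DAN family, passed in severe kidneys, at 3.11 to 4.57 against 1.95 to 3.19 in control (change 1.02, SE 0.29, adjusted p = 0.0214).

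Of 12 other ligands tested, *Bmp3* and *Bmp8b* rose in severe kidneys and *Bmp3* also over all *mgb-/-* kidneys, beside 6.57% and 5.34% of all genes. *Bmp3*, which opposes other BMPs in bone, was at -3.45 to -2.42 in control and at -1.76 to 0.64 in severe kidneys, a change of 2.43 (SE 0.32, adjusted p = 0.000144). *Bmp8b* was at -5.55 to -4.21 in control and at -3.93 to -3.06 in severe kidneys, a change of 1.37 (SE 0.27, adjusted p = 0.00342) that was 0.60 with normexp background correction. In both genes, named because they passed the test, severe kidneys overlapped no control kidney. Both also differed between severe and mild kidneys, by 1.53 (adjusted p = 0.0184) for *Bmp3* and 1.30 (adjusted p = 0.0169) for *Bmp8b*.

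Of 11 other targets tested, *Msx2* and *Gata2* rose in severe kidneys and *Atoh8* over all *mgb-/-* kidneys, beside 6.57% and 5.34% of all genes. *Msx2*, a homeobox gene induced by BMPs in many tissues, was at -3.21 to -2.16 in control and at -1.35 to 0.43 in severe kidneys. It rose by 1.97 (SE 0.29, adjusted p = 0.000336) and exceeded mild kidneys by 1.65 (adjusted p = 0.00656). *Gata2* rose by 0.49 (adjusted p = 0.0378), a call that held under 23 of 36 alternatives. *Atoh8* rose by 0.58 (adjusted p = 0.0462), which held under 10 of 36. Severe kidneys also overlapped no control kidney in the urothelial sums given beside *Bmp2*, and the part of urothelial RNA in the changes of *Bmp3*, *Bmp8b* and *Msx2* was not tested.

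Of 8 Smads and Smad ubiquitin ligases tested, 3 fell in severe kidneys and 1 over all *mgb-/-* kidneys, beside 9.56% and 8% of all genes. *Smad4*, the common partner of the receptor Smads, fell by 0.45 in severe kidneys (SE 0.12, adjusted p = 0.0172). *Smad5*, a BMP receptor Smad, fell by 0.32 (SE 0.08, adjusted p = 0.0160), and *Smurf2*, a ubiquitin ligase that targets Smads and receptors, by 0.38 (SE 0.12, adjusted p = 0.0313). These calls held under 32, 32 and 24 of 36 alternatives, and the changes nearest 0 were -0.28 for *Smad4* and -0.14 for *Smad5*. *Smad2*, which carries activin and transforming growth factor β signals, fell by 0.30 over all *mgb-/-* kidneys (SE 0.10, adjusted p = 0.0459), a call that held under 10 of 36 alternatives. Of 11 receptors and co-receptors, the co-receptor gene *Rgma* alone passed, falling by 0.66 in severe kidneys (SE 0.18, adjusted p = 0.0217). In severe kidneys 9.56% of all genes fell. Over all *mgb-/-* kidneys the median change of the 11 was 0.02, and 1 had an unadjusted p under 0.05, beside 29% of all genes.

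**Figure D4:**
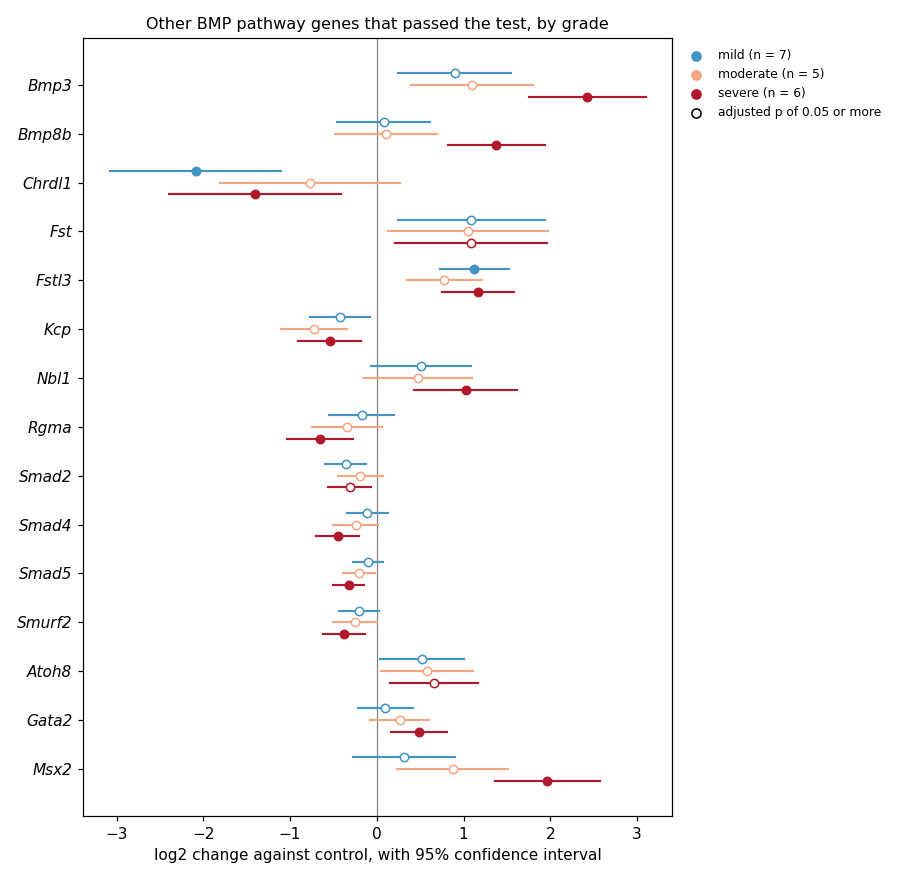
Log2 change against control (horizontal axis) of 15 other pathway genes that passed the test in at least 1 comparison with control, by grade, with unadjusted 95% confidence intervals as lines and filled points where the adjusted p was under 0.05. The genes were chosen by these tests, so the plot is a description; *Bmp3*, *Bmp8b* and *Msx2* lie farthest to the right in severe kidneys relative to mild ones.

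For each gene the named genes with the most similar pattern over the kidneys were found by Pearson's r among 16269 genes measured on all 24 arrays (16448 on 23 arrays for *Id1*). This is a description over kidneys that share genotype, grade and slide. *Bmp2* was closest to *Cst6* (r = 0.87), *Bcl2l14* (0.87) and *Msx2* (0.87), the last of which is the target gene described above. *Grem1* was closest to *Tubb2a* (0.87), *Tsc22d4* (0.85) and *Adra2a* (0.85). *Id1* was closest to *Egr1* (0.86), *Ier3* (0.86) and *Btg2* (0.85), none of which is in the BMP lists. *Id2* was closest to *Iffo1* (0.91), *Atp6v1c1* (0.90) and *Pcdh7* (0.90), and *Id3* to *Ajuba* (0.84), *Klhdc1* (0.80) and *Nags* (0.77).

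*Bmp7* was closest to *Hsd17b10* (r = 0.92), *Gde1* (0.92) and *Got2* (0.91). *Bmp6* was closest to *Map2k1* (0.89), *Hmox1* (0.89) and *Fbp2* (0.88), and *Bmp4* to *9330159M07Rik* (0.84), *Prss37* (0.81) and *Zfp956* (0.81). *Inhba* was closest to *Csf2rb* (0.97), *Rgs16* (0.96) and *Adam8* (0.96), and *Bmper* to *Lyz1* (0.94), *Clec10a* (0.94) and *F13a1* (0.94). Severe replicate 5 was the highest kidney of all 24 for both *Inhba* and *Bmper*.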

How the data were processed

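Cy3-labelled total RNA of 24 whole kidneys was hybridized to 8x60K Agilent mouse arrays, with 1 kidney on each. The authors deposited spot intensities from Agilent Feature Extraction 10.10 (per the labels), background-subtracted and not normalized between arrays, the median signal and background, and a table of whole-number intensities normalized between arrays by a method not given in the sources used here.

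The log2 of the processed intensity was centred on the 75th percentile of each array, control spots excluded. Outlier spots were dropped and repeated spots averaged. A probe was kept where it stood well above background on 5 or more arrays (38838 of 55681). Accessions in the RefSeq table of GRCm38.p6 named 26762 probes and left 28919 unnamed, and the brightest probe stood for a gene. The array was annotated on another build, so coordinates come only from RefSeq. For 325 genes a value was missing on 1 array or more. The number of arrays limits the precision.

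Groups followed the labels. limma 3.58.1 (R 4.3.3) was fitted with 2 groups for *mgb-/-* against control and with 4 groups otherwise, and p-values were adjusted over all genes. Relations with *Id1* used 100000 permutations (Python 3.11.15). The steps were tested on simulated data. Named genes are the 10 members, listed pathway genes that passed in a comparison with control, and the 3 nearest genes of each member, and 1 listed gene is counted but not reported here. Members, lists and tests were chosen with earlier results of these data known. Alternatives were scaling by the median, quantile normalization, the authors' normalized table, normexp (offset 50, on the median signal because the files used here lack the mean), the mean of probes, signal required on all 24 arrays or no filter, slide or replicate number as a block, array weights, fits on the compared groups alone, an adjusted p under 0.1, a fold of at least 2, and leaving out each kidney in turn. For *mgb-/-* against control, the fit on the compared groups alone was replaced by a fit of 4 groups with the 3 grades weighted equally. Each of the 3 slides held all 4 groups.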

Additional observations from a re-analysis of the deposited data

Results flagged for a closer look

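In each of 104 groups of kidneys (the 10 genes and the 16 other pathway genes that passed in a comparison with control, in 4 groups each) the highest and lowest kidney were compared with the rest by Dixon's criterion, and 7 stood out. Chance gives about 1 in 20 groups. *Grem1* in control replicate 5 was -1.82, far above the other controls. *Inhba* in severe replicate 5 was 1.89, and *Bmper* in moderate replicate 5 was -4.23, far below its group. *Id3* in control replicate 4 was 4.19, *Bmp7* in mild replicate 1 was 4.73, *Smad4* in moderate replicate 4 was 3.08, and *Chrdl1* in control replicate 5 was -2.95. Control replicate 5 stood out in both *Grem1* and *Chrdl1*.

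The change against control differed between severe and mild kidneys, by limma's test of severe against mild, in *Bmp3* (1.53), *Bmp8b* (1.30) and *Msx2* (1.65), each higher in severe kidneys.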

How the results depend on the processing

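*Grem1* and *Id1* kept their direction under all alternatives run, and over all *mgb-/-* kidneys and in mild and severe kidneys they also kept the threshold wherever they were tested. A filter on all 24 arrays removed *Grem1* and *Bmper* and left 1 of the members past the test in *mgb-/-* and 1 in mild kidneys. Signs that turned belonged to changes near 0. *Bmp4* in *mgb-/-* kidneys became 0.12 with quantile normalization and 0.11 with the authors' normalized table, and *Bmp7* became -0.14 with scaling by the median and ranged from -0.022 to 0.092 as single kidneys were left out. Scaling by the median moved the median of all genes in that comparison from 0.01 to -0.15 and that of the 10 members from 0.55 to 0.40.

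Counts of members past the test moved as follows. The share of all genes past the test was taken in the main fit only. These counts, and those of the other pathway genes below, therefore cannot be told apart from a shift over all genes. Array quality weights gave 4 in *mgb-/-*, 4 in mild and 5 in moderate kidneys, and 1 each in severe against mild and severe against moderate. In moderate kidneys the count of 1 became 2 with quantile normalization, normexp or the authors' normalized table, 3 at an adjusted p under 0.1, and 0 when only the groups compared were fitted. In severe kidneys a fold of at least 2 left 2. Normexp gave 1 in severe against mild. Leaving out single kidneys gave 2 to 3 in *mgb-/-*, 0 to 4 in moderate, 3 to 5 in severe kidneys, and 0 to 1 in severe against mild and in severe against moderate. In moderate kidneys the 4 came without severe replicate 5, 2 passed without moderate replicate 2 or severe replicate 6, and 0 without control replicate 3, 4 or 6 or moderate replicate 1, 3 or 4. The 1 in severe against mild came without control replicate 3 or moderate replicate 5, and the 1 in severe against moderate without moderate replicate 3.

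Of the other pathway genes, array quality weights gave 22 in *mgb-/-*, 20 in mild and 8 in moderate kidneys and 5 in severe against mild. An adjusted p under 0.1 gave 16, 6 and 4 in *mgb-/-*, mild and moderate kidneys. A fold of at least 2 gave 5 in *mgb-/-* and 7 in severe kidneys. Fitting only the groups compared gave 15 in mild and 7 in severe kidneys and 0 in severe against mild. In moderate kidneys normexp, the authors' normalized table and the mean of probes gave 1 each and the filter on all 24 arrays 2. The authors' normalized table gave 1 in severe against moderate. In *mgb-/-* kidneys leaving out single kidneys gave 3 to 13, with 3 to 5 without control replicate 1, 2, 3, 4 or 6 and 13 without moderate replicate 2 or 5 or severe replicate 6. It gave 2 to 4 in mild kidneys, 8 (without severe replicate 1) to 22 (without severe replicate 6) in severe kidneys, and 1 (without mild replicate 5 or severe replicate 2 or 5) to 3 in severe against mild. In moderate kidneys it gave 0 to 6, the 6 without moderate replicate 2 and 1 or 2 without moderate replicate 5 or severe replicate 4, 5 or 6. In severe against moderate it gave 0 to 3, the 3 without severe replicate 6 and 1 without moderate replicate 3. The count of relations with *Id1* past the test became 1 (*Id3*) with scaling by the median, grade means removed or Spearman's rho. The cause of these differences was not tested.

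Replicate numbers recur across groups, and the labels do not say whether they pair kidneys. Deviations of same-numbered kidneys from their group means had a median correlation of 0.005 over 33 pairs, against 0.004 over 182 other pairs. Of these pairs 10 and 58 were over 0.1, and the highest values were 0.65 and 0.58. These medians cannot exclude that some same-numbered kidneys share a mouse. With the replicate block 2 members passed in *mgb-/-* and mild, 0 in moderate and 4 in severe kidneys, while 3 other pathway genes passed in *mgb-/-* and 7 in severe kidneys. Scan day was the same for all arrays, so a block on it was not run. Signal over background limits *Grem1* in 4 control kidneys and *Bmper* in 1.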
